A study of Mus musculus with 8 samples.

Results

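The genes described here are the core of the cellular oxygen-sensing pathway: the hypoxia-inducible factor (HIF) alpha subunit genes Hif1a, Epas1 and Hif3a, their dimer partner Arnt, the oxygen sensors Egln1, Egln2, Egln3 and Hif1an, the ubiquitin ligase gene Vhl, and the hormone gene Epo. They were chosen by symbol from the gene column of the count table, and all 10 were present among 21759 genes. The study asked, by bulk RNA sequencing of kidney, what the small molecule BRD4780 changes in a knock-in mouse model of MUC1 kidney disease. All 8 mice were knock-in males, 8 months old, so the disease allele was shared by both groups, and mice without it were not analysed here. One group of 4 mice received saline vehicle and the other group of 4 received BRD4780 at 50 mg/kg, each once a day over 7 days. AGN50 is the name in the treated samples' titles. RNA came from a sagittal piece of whole kidney, so each value averages over all cell types of the organ. Replicate numbers were given in accession order within a group and carry no pairing.

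HIF is a dimer of an oxygen-labile alpha subunit and the stable beta subunit ARNT. When oxygen is available, prolyl hydroxylases of the EGLN (PHD) family mark the alpha subunit for binding by the VHL ubiquitin ligase and for degradation, and the asparaginyl hydroxylase encoded by Hif1an (factor inhibiting HIF) blocks its coactivator contact. This control acts on protein, so the RNA levels below describe the parts of the pathway and not its activity. In the kidney HIF-1 alpha is best known from tubular epithelium, and HIF-2 alpha (Epas1) from endothelium and from the interstitial cells that make erythropoietin (Epo). HIF-3 alpha exists in several splice forms, some of which lack the transactivation domain and restrain the other subunits.

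Library totals were 16.64 to 28.55 M expected counts with vehicle and 5.74 to 28.18 M with BRD4780, where replicate 4 was the shallowest. BRD4780 replicate 3 stood apart from the other treated libraries. On the first principal component of the 1000 most variable genes (39.3% of the variance) it lay at -3.5, between vehicle libraries at -21.2 to -12.3 and the other treated libraries at 16.8 to 32.9. For the 10 genes and the 4 lists of pathway genes below, a count or call that changes without it is given both ways. The proximal tubule marker Slc34a1 ranged from 4026 to 6561 counts per M library counts (CPM) over the libraries. Its highest value was that of BRD4780 replicate 3, and the other treated libraries were at 4026 to 4735 CPM.

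The upstream sequences of a gene that rose (Hif3a), of a well-known HIF target among the sensors (Egln3) and of a hypoxia target that fell (Car9) are shown first, since the pathway acts through short DNA letters near its targets. Each is the 250 bases before the gene's start in the RefSeq table for GRCm38.p6, read along the gene from 5′ to 3′. Capitals mark the core letters of the hypoxia response element, ACGTG or GCGTG, on either strand, so that CACGT and CACGC are the same letters read from the opposite strand. The windows are chr7:17062428-17062677 (minus strand), chr12:54203875-54204124 (minus strand) and chr4:43506776-43507025 (plus strand).
Hif3a: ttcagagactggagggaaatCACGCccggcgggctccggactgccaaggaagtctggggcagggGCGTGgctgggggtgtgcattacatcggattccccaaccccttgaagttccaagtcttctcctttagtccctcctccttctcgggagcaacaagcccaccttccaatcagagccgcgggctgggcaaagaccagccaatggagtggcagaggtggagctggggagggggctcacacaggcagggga
Egln3: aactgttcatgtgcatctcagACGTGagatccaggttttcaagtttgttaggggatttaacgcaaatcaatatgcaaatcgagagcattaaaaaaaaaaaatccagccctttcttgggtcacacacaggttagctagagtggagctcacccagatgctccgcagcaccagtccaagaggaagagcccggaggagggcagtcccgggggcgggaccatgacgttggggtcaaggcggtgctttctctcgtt
Car9: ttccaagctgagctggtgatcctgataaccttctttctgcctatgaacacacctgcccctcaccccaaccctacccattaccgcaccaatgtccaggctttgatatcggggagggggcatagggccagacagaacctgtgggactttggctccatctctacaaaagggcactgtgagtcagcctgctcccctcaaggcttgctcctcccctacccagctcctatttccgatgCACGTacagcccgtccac
The Hif3a window held 2 copies of GCGTG and 0 of ACGTG, the Egln3 window 1 copy of ACGTG, and the Car9 window 1 copy of ACGTG, 14 to 18 bases before the start. Over 32851 windows of the same length in the table, 16.6% held ACGTG and 28.2% held GCGTG. Where CACGTG occurs, ACGTG is found on both strands of the same letters, and 6.02% of windows held it. The table had 10 windows for 9 of the 10 genes, with Epas1 missing and Egln2 present with 2 windows, and 4 of these held ACGTG and 6 held GCGTG. The windows compared were not matched for GC content, and a match describes letters only and names no bound factor.

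With BRD4780, Hif3a rose 8.56-fold (95% interval 4.06 to 18), and it was the only one of the 9 tested genes past the threshold. The fold changes of the other 8 tested genes lay between -0.24 and 0.26 on the log2 scale, a size under 0.3 that 70.2% of all genes tested had. Of those, Arnt was higher and Egln1 lower in every treated library than in every vehicle library, at adjusted p-values of 0.102 and 0.114. Epo was at a few counts per library and could not be tested with the others. In the test used, edgeR's quasi-likelihood test with Benjamini-Hochberg adjustment over 13474 genes, 2.3% of all genes were higher and 0.623% lower at an adjusted p under 0.05. Among the 9 tested members 1 was higher and 0 were lower, with 3 higher and 1 lower at an unadjusted p under 0.05, where 24.6% of all genes passed. DESeq2 also gave 1 higher (Hif3a) and 0 lower, with 6.68% and 3.84% of all genes.

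**Figure D1:**
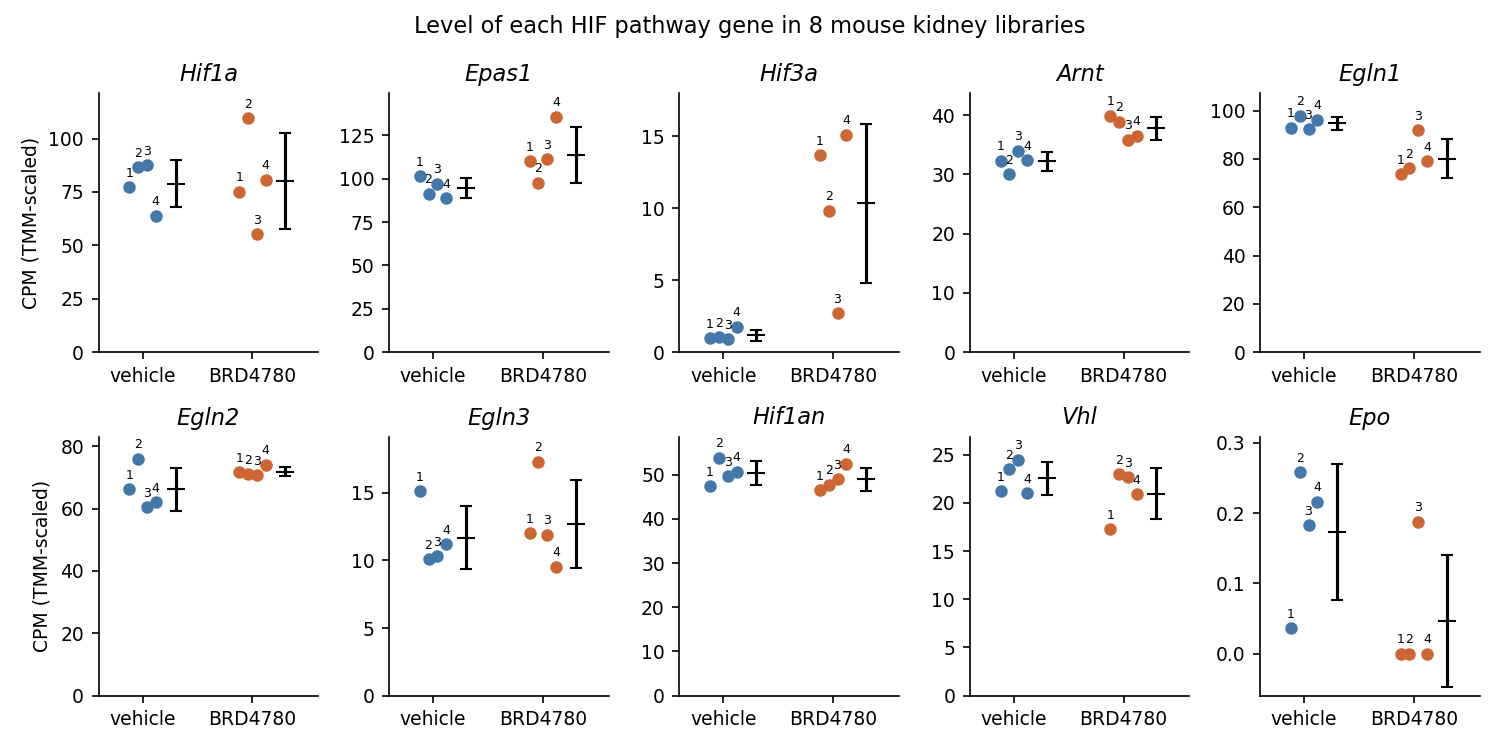
Level of each of the 10 genes (CPM with TMM-scaled totals, linear axis) in the vehicle and BRD4780 groups; each point is 1 mouse, the number is its replicate, and the bar gives the mean ± SD (n = 4 per group). The treated points lie above all vehicle points for Hif3a and Arnt and below them for Egln1, with BRD4780 replicate 3 nearest to the vehicle points in each.

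Hif3a (chromosome 7, 17031507 to 17062427, minus strand, mm10) was at 0.979, 1.03, 0.913 and 1.77 CPM in vehicle replicates 1 to 4. In BRD4780 replicates 1 to 4 it was at 13.7, 9.83, 2.7 and 15.1 CPM. The groups did not overlap, and BRD4780 replicate 3 was much the lowest of the treated libraries. The group values were 1.17 ± 0.399 and 10.3 ± 5.54 CPM (SD, n = 4 per group), with a log2 fold change of 3.10 ± 0.49 (SE; edgeR adjusted p = 0.0156). These levels rest on 15 to 41 expected counts per vehicle library and 72 to 331 per treated library, and no exon of another annotated gene overlaps those of Hif3a. Only 0.0668% of the 13474 genes had a larger log2 fold change. Without BRD4780 replicate 3 the log2 fold change was 3.43 (adjusted p = 6.44e-05), against a background of 12.1% of genes higher in that fit. The call was lost, at log2 fold changes of 2.91 to 3.04, without vehicle replicate 1, 2 or 3 (adjusted p = 0.0624, 0.0678 and 0.0511) or BRD4780 replicate 1 (adjusted p = 0.0599), and in limma voom (2.73, adjusted p = 0.0749). In those fits 0.398%, 0.192%, 0.549%, 0.382% and 1.51% of all genes were higher, and in the fits without vehicle replicate 4 or BRD4780 replicate 2 or 4, where the call was kept, 1.29%, 0.392% and 0.483%.

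The markers of several cell types differed between the groups beside Hif3a. In a bulk sample, more cells of a type and more RNA per cell cannot be told apart. Of 16 endothelial markers 4 rose and 0 fell, Pecam1 was at 29.1 ± 7.16 and 43.9 ± 8.43 CPM (SD, n = 4 per group; edgeR adjusted p = 0.103), and their summed level was 255.2 to 459.9 CPM with vehicle and 526.6 to 681.8 CPM with BRD4780. Of 12 podocyte markers 4 rose and 0 fell, with sums of 152 to 250.5 and 318.7 to 428 CPM, and the podocyte gene Nphs1 was at 2.33 to 7.15 CPM with vehicle and 14.3 to 22.2 CPM with BRD4780. Of 9 thick ascending limb markers 3 fell and 0 rose, with overlapping sums of 3871 to 5055 and 2714 to 4204 CPM. Over all genes tested, 2.3% were higher and 0.623% lower. For adipocytes, a cell type in which Hif3a is also known, 6 of 8 markers could be tested and 0 passed. All 6 had a log2 fold change below 0 (median -1.77, against 0.01 over all genes). At an unadjusted edgeR p under 0.05, which 24.6% of all genes passed, 3 of them were lower and 0 higher. The sums overlapped, at 112.5 to 309.6 and 70.4 to 174.3 CPM, with Adipoq at 2.19 to 16.7 and 0.0751 to 5.03 CPM. The part of these cell types in the Hif3a result was not tested.

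The other alpha subunit genes were far more abundant. Epas1 (chromosome 17, 86753700 to 86833410, plus strand), which encodes HIF-2 alpha, was at 101.4, 91.4, 97 and 88.8 CPM in the vehicle libraries. In the treated libraries it was at 110, 97.7, 111.3 and 135.7 CPM. Only BRD4780 replicate 2 lay within the vehicle range, and replicate 4, the shallowest library, was the highest. The log2 fold change was 0.26 ± 0.10 (SE; 95% interval 0.04 to 0.48), which did not pass the threshold (edgeR adjusted p = 0.154). It was 0.17 without BRD4780 replicate 4. Endothelial cells are a known site of Epas1 expression, all 16 endothelial markers had a log2 fold change above 0 (median 0.59, against 0.01 over all genes), and their part in the Epas1 values was not tested.

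Hif1a (chromosome 12, 73901375 to 73947530, plus strand), the gene of HIF-1 alpha, was at 77.3, 86.5, 87.5 and 63.9 CPM with vehicle. With BRD4780 it was at 75.1, 109.4, 55.1 and 80.8 CPM. The treated libraries held both the highest and the lowest value of all 8, and the groups overlapped. The log2 fold change was 0.02 ± 0.18 (SE; edgeR adjusted p = 0.951), and its 95% interval of -0.38 to 0.43 leaves room for changes of that size in either direction. Its sign turned with the library left out, from -0.17 without BRD4780 replicate 2 to 0.17 without replicate 3. Exons of Hif1a share 330 bases with the opposite-strand gene Gm15283 and 148 bases with the same-strand Gm49321.

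Levels of different genes can be compared only per length, here as CPM per kb of merged annotated exons. On this scale the vehicle group had 16.9 ± 1.02 for Epas1, 13.4 ± 1.85 for Hif1a and 0.175 ± 0.0595 for Hif3a (SD, n = 4). With BRD4780 the levels per kb were 20.3 ± 2.84, 13.6 ± 3.81 and 1.54 ± 0.826 (SD, n = 4). Hif3a thus made up 0.588% ± 0.26 of the summed alpha subunit level with vehicle and 4.19% ± 2.08 with BRD4780 (SD, n = 4 per group). By library its share was 0.464%, 0.493%, 0.421% and 0.976% with vehicle, and 5.92%, 3.9%, 1.36% and 5.58% with BRD4780. Every treated library had a larger share than every vehicle library, and Epas1 and Hif1a together made up the rest of the sum. The share follows from the Hif3a values already given and was not tested separately.

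**Figure D2:**
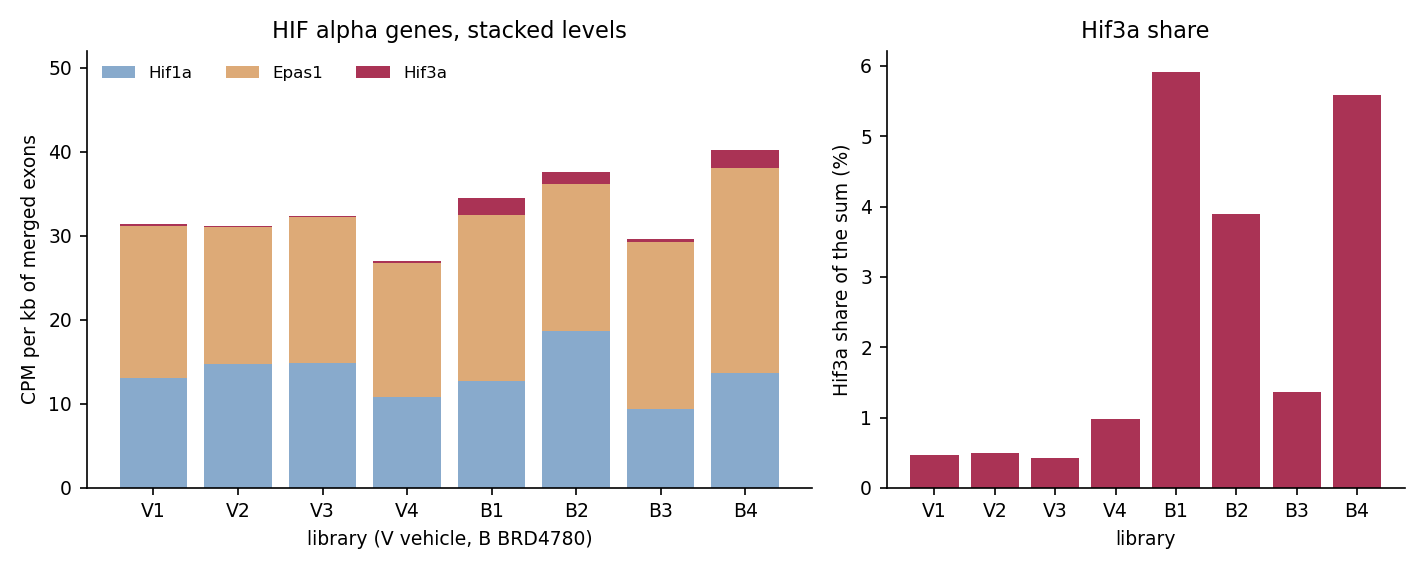
Levels of the 3 HIF alpha genes per library (left, stacked CPM per kb of merged exons) and the share of Hif3a in their sum (right, percent), for vehicle replicates V1 to V4 and BRD4780 replicates B1 to B4. The Hif3a share stays under 1% with vehicle (0.421% to 0.976%) and reaches 1.36% to 5.92% with BRD4780.

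Arnt (chromosome 3, 95434388 to 95497240, plus strand) encodes HIF-1 beta, the partner that all alpha subunits and the aryl hydrocarbon receptor use. It was at 32.3, 30, 34 and 32.4 CPM with vehicle and at 39.9, 38.9, 35.8 and 36.5 CPM with BRD4780. The groups lay apart, with a small gap between vehicle replicate 3 and BRD4780 replicate 3. The log2 fold change was 0.23 ± 0.08 (SE; 1.18-fold, edgeR adjusted p = 0.102), short of the threshold. Over all genes tested, 7.42% had non-overlapping groups in this direction and 5.14% in the other. Without BRD4780 replicate 3, Arnt passed the threshold at a log2 fold change of 0.26 (adjusted p = 0.0358), in that fit with 12.1% of all genes higher.

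Among the oxygen sensors, Egln1 (chromosome 8, 124908587 to 124949324, minus strand), the gene of PHD2, the main HIF prolyl hydroxylase in most cells, was at 92.9, 97.9, 92.3 and 96.3 CPM with vehicle. With BRD4780 it was at 73.6, 76.2, 91.9 and 79.1 CPM. The vehicle libraries lay close together, and 3 of the 4 treated libraries were clearly below them, while BRD4780 replicate 3 was just under the lowest vehicle library. The log2 fold change was -0.24 ± 0.08 (SE; 0.846 of the vehicle level, edgeR adjusted p = 0.114). Without BRD4780 replicate 3 it was -0.32 and passed the threshold (adjusted p = 0.00795), where 11.3% of all genes were lower.

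Egln2 (PHD1) was at 60.4 to 76 CPM with vehicle and 70.8 to 74.1 CPM with BRD4780, and the treated range lay inside the vehicle range (log2 fold change 0.12 ± 0.08 SE, edgeR adjusted p = 0.395). Egln3 (PHD3), itself a HIF target that rises in hypoxia, was at 15.1, 10.1, 10.3 and 11.2 CPM with vehicle and at 12, 17.3, 11.9 and 9.53 CPM with BRD4780. Its groups overlapped widely, with 1 high library in each (log2 fold change 0.14 ± 0.19 SE, 95% interval -0.29 to 0.56, edgeR adjusted p = 0.69). Hif1an lay at 47.4 to 53.8 CPM in vehicle libraries and at 46.5 to 52.5 CPM in treated ones, a log2 fold change of -0.05 with a 95% interval of -0.21 to 0.12 (edgeR adjusted p = 0.733). Vhl, the substrate receptor of the ligase, ranged from 21 to 24.5 and from 17.3 to 23 CPM, with BRD4780 replicate 1 the lowest (log2 fold change -0.10 ± 0.11 SE, edgeR adjusted p = 0.587). For Egln2, Hif1an and Vhl the 95% intervals kept to between 0.788 and 1.23 times the vehicle level, while that of Egln3 reached 0.82 to 1.48 times.

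**Figure D3:**
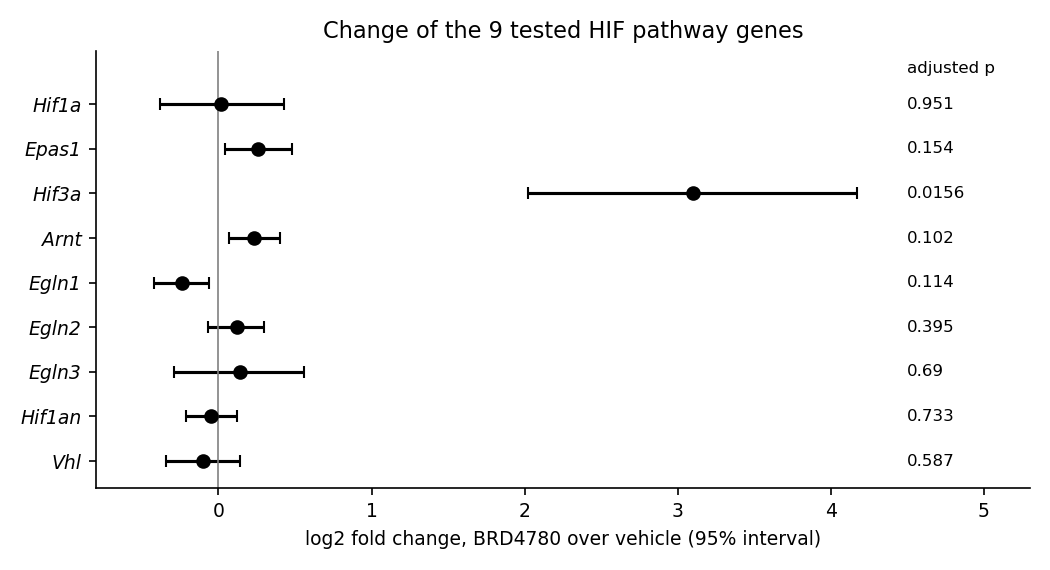
Log2 fold change, BRD4780 over vehicle, of the 9 tested genes from edgeR (points) with 95% intervals (bars) and adjusted p-values at the right. The point of Hif3a lies at 3.10 and all others lie between -0.24 and 0.26.

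In order of level per kb, the vehicle kidneys had Egln1 (26.4 ± 0.759) and Egln2 (23.6 ± 2.49) first, with overlapping libraries (SD, n = 4). Epas1 and Hif1a followed, and each lay apart from its neighbours. Hif1an (7.63) and Vhl (7.52) overlapped, as did Egln3 (4.39) and Arnt (4.02), and Epo (0.202) and Hif3a (0.175) came last and overlapped. With BRD4780 the first 4 places, Egln2 (25.7), Egln1 (22.3), Epas1 (20.3) and Hif1a (13.6), overlapped from each to the next, and Hif3a at 1.54 lay apart from both Arnt above it and Epo below it. Dividing by the longest transcript in place of merged exons put Egln2 before Egln1 with vehicle and moved Arnt to 7.44, above Egln3, since the merged exons of Arnt (8.01 kb) are much longer than its longest transcript. The 2 lowest genes with vehicle were the same on both scales.

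Epo (chromosome 5, 137483020 to 137533242, minus strand), which encodes the hormone that drives red cell production and is the classic renal HIF-2 target, was barely counted. The vehicle libraries held 1, 7, 3 and 5 expected counts (0.0359, 0.258, 0.183 and 0.216 CPM). BRD4780 replicates 1, 2 and 4 held 0 counts, and replicate 3 held 5 (0.188 CPM). With 0 counts seen, a true level of up to 3 counts remains possible, or 0.124, 0.101 and 0.502 CPM in those libraries, so in replicate 4 a level above that of every vehicle library was not detectable at this depth. An exact two-sided permutation test over the 8 libraries gave p = 0.0857 (group means 0.173 and 0.0469 CPM, n = 4 each; the smallest p this design allows is 0.0286). The library with counts among the treated was the one that stood apart in the whole transcriptome. Of 14 markers of interstitial fibroblasts and pericytes, the cells that hold the Epo producers, 0 passed the edgeR threshold. Of all genes tested, 2.3% were higher and 0.623% lower. At an unadjusted edgeR p under 0.05, which 24.6% of all genes passed, 2 of these markers were higher and 2 lower. Pdgfrb was at 18.1 ± 2.58 and 18.8 ± 0.591 CPM (SD, n = 4 per group). The sums, in which opposite changes can cancel, were 231.7 to 269.2 CPM with vehicle and 242.2 to 264.5 CPM with BRD4780. The part of these cells in the Epo values was not tested. Exons of Epo share 104 bases with the same-strand gene Gnb2.

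Genes that act around the pathway were taken from lists of regulators and targets. Of 17 tested regulators of HIF proteins (coactivators, degradation machinery and partners) 0 passed the edgeR threshold, and their median log2 fold change was 0.09, against 0.01 over all genes. At the smallest p-values, Spsb1, a ubiquitin ligase adaptor gene, was at 1.57 ± 0.411 and 4.7 ± 1.95 CPM (SD, n = 4 per group; edgeR adjusted p = 0.0507), and Wsb1, whose product has been linked to VHL turnover, was at 70.9 ± 11.4 and 128.2 ± 43.9 CPM (SD, n = 4 per group; edgeR adjusted p = 0.0763). At an unadjusted p under 0.05, which 24.6% of all genes passed, 3 of the 17 regulators were higher and 2 lower. DESeq2 called 2 higher and 2 lower, with 6.68% and 3.84% of all genes. Without BRD4780 replicate 3, where 12.1% of all genes were higher and 11.3% lower, 4 regulators were higher (Siah1a, Sirt1, Spsb1 and Wsb1) and 2 lower (the HSP90 genes Hsp90aa1 and Hsp90ab1). Of 10 other tested genes of the bHLH-PAS family, to which the HIF subunits belong, 0 passed in edgeR or DESeq2 with all libraries (median -0.14), with 0 higher and 1 lower at an unadjusted p under 0.05. Npas2 and Sim1 had the smallest p-values there, with log2 fold changes of -0.60 and -0.34 (edgeR adjusted p = 0.156 and 0.288). Npas2 passed at -0.81 (adjusted p = 0.0307) without BRD4780 replicate 3 and was the 1 family gene that did.

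Of 44 hypoxia target genes 1 rose and 2 fell, shares to be read against 2.3% and 0.623% of all genes, with a median log2 fold change of -0.13, against 0.01 over all genes. Car9, carbonic anhydrase 9, whose upstream sequence is given above, was at 89.7, 124.9, 84 and 83.9 CPM with vehicle and 55.8, 42.2, 62.1 and 42.7 CPM with BRD4780. All treated libraries were below all vehicle libraries (log2 fold change -0.91 ± 0.16 SE, edgeR adjusted p = 0.0231). Pkm, pyruvate kinase M of glycolysis, fell to 191.3 ± 19.6 CPM from 275.7 ± 44.1 CPM with vehicle (SD, n = 4 per group; edgeR adjusted p = 0.0491). Pfkfb4, which makes the activator of phosphofructokinase, went the other way. It was at 7.21, 5.08, 6.39 and 8.66 CPM with vehicle and at 16.2, 11.1, 9.95 and 12.9 CPM with BRD4780, with no overlap (1.83-fold, edgeR adjusted p = 0.0474). The summed level of the list overlapped between the groups, at 14569 to 15470 and 12669 to 16201 CPM. Counts moved with the libraries used. Without BRD4780 replicate 3, 7 targets were higher and 13 lower, in a fit with 12.1% and 11.3% of all genes. The 7 were Ddit4, Kdm3a, Kdm4b, Lox, Pfkfb3, Pfkfb4 and Stc2. The 13 included the glycolysis genes Pgk1, Eno1, Gapdh, Ldha, Tpi1, Pgam1, Pfkl and Pkm (chosen after their values were seen). Other glycolysis genes of the list, Aldoa, Hk1, Hk2 and Pfkp (also chosen after their values were seen), were in neither set. With any 1 of the other libraries left out, 0 or 1 were higher and 0 to 2 lower. The calls of Pfkfb4 and Pkm were each lost without vehicle replicate 1, 2 or 3 or BRD4780 replicate 1, 2 or 4 and in limma voom, and that of Car9 without vehicle replicate 1 or 2 or BRD4780 replicate 1, 2 or 4. Their log2 fold changes over all 8 leave-one-out fits lay at 0.71 to 1.01 for Pfkfb4, -0.61 to -0.43 for Pkm and -1.02 to -0.75 for Car9.

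Of 19 tested genes best known as HIF-2 targets 1 rose and 0 fell (median 0.07), beside 2.3% and 0.623% of all genes. This was Flt1, the VEGF receptor 1 gene, at 12.7, 7.74, 11.5 and 9.05 CPM with vehicle and 16.6, 20.7, 18.1 and 22.1 CPM with BRD4780 (1.88-fold, edgeR adjusted p = 0.0231). The groups did not overlap. This call was lost without vehicle replicate 2 or 3 or BRD4780 replicate 1, 2 or 4 (log2 fold change 0.79 to 0.98, adjusted p = 0.0523 to 0.0784). With BRD4780 replicate 3 left out, 5 genes of the list were higher (Flt1, Kdr, Cdh5, Arg2 and Cybrd1) and 2 lower (Apln and Slc40a1), against 12.1% and 11.3% of all genes. Flt1 is also one of 4 genes of this list that mark endothelium, of whose 16 markers 4 passed the threshold, Flt1 among them, and the part of endothelium in the Flt1 value was not tested. Vegfa, a well-known HIF target that is in the list of 44 hypoxia targets and not in this one, was at 213.8 ± 32.9 and 270.3 ± 38 CPM (SD, n = 4 per group; edgeR adjusted p = 0.152; chosen after its values were seen).

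**Figure D4:**
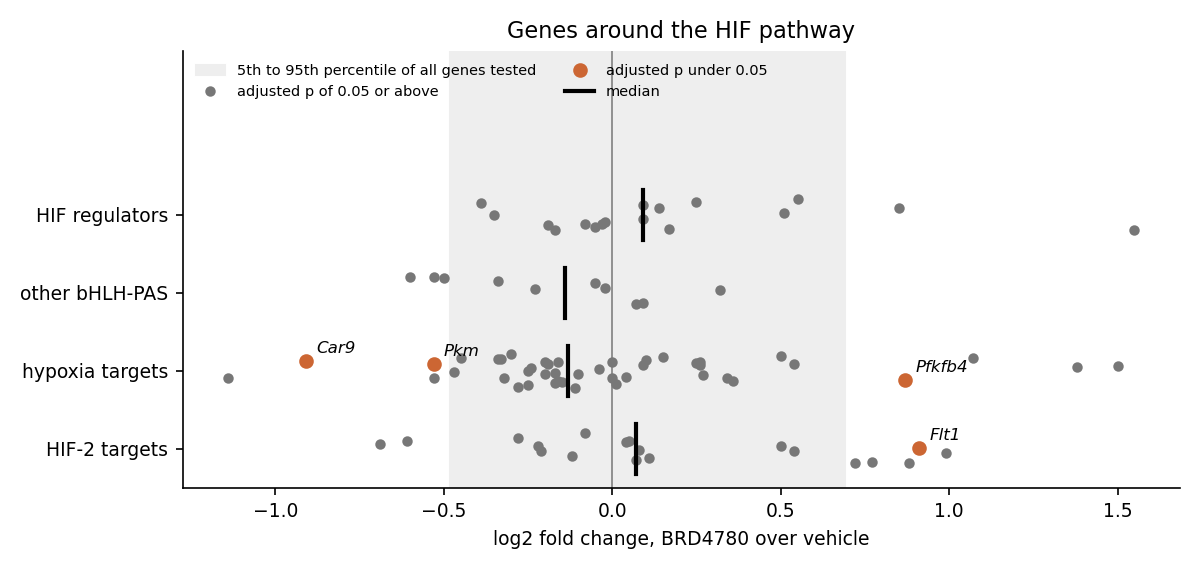
Log2 fold change of single genes (points) in 4 lists around the HIF pathway, with the list median (black bar), genes at an adjusted p under 0.05 in orange and named, and the range from the 5th to the 95th percentile of all genes tested in grey (-0.48 to 0.69). Car9 at -0.91 and Pkm at -0.53 lie on the low side of the hypoxia targets and Pfkfb4 at 0.87 on the high side.

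Genes with a pattern most like that of Hif3a were ranked by Pearson's r of log2 CPM over the 8 libraries among 11576 genes. First came Usp36 (r = 0.996), then Eif2ak4 (0.993), Tbc1d17 (0.992), Copz2 (0.990) and 2410002F23Rik (0.989). Usp36 rose 1.77-fold (edgeR adjusted p = 0.0166), and the 5 genes differ from Hif3a in the size of their change. These r values are a description, and the libraries share the group difference and the low position of BRD4780 replicate 3. Deviations from the group means remove the difference of the means but keep the low position of BRD4780 replicate 3. On these deviations the closest genes were Zfp40 (0.989), Glt8d1 (0.985), Usp36 (0.984), Ankrd39 (0.982) and Mms19 (0.982). Among the other pathway genes, Arnt had an r of 0.86 with Hif3a over the 8 libraries and Egln1 of -0.93. On deviations from the group means these were 0.38 and -0.77.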

How the data were processed

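The authors deposited expected counts, which are estimated reads per gene without normalization, in 1 table. The submitters' processing notes name RSEM 1.3.0, STAR 2.5.2b, Picard and the builds mm10 and hg19 without saying what each was used for. The annotation and strand setting: not given in the sources used here. Reads of genes that overlap on opposite strands may therefore not be told apart. Symbols on repeated lines (343, with identical values) were merged, leaving 21759 genes. One column of values (1 of the table) belonged to no analysed sample and stayed unused. Coordinates and lengths are from GENCODE M21 (mm10).

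Rounded expected counts were filtered (filterByExpr, minimum count 10), scaled by TMM and tested in edgeR 4.0.16 (R 4.3.3) by the quasi-likelihood F-test on 8 libraries, no covariate, with adjustment over 13474 genes and a threshold of 0.05. Standard errors were |log2 fold change| divided by √F, and 95% intervals used the total degrees of freedom of the fit (residual plus prior). CPM are TMM-scaled, and r used log2 CPM with a prior count of 2. The limit for 0 counts is 3 counts, for counting error only. Groups follow the treatment label, and the design text gives 4 animals per arm, taken as 1 library each. The test was checked on simulated counts, where 14 of 193 calls were false. Simulated libraries of a group shared the same mean per gene, so the check does not cover a library like BRD4780 replicate 3. Changes were simulated only in genes with vehicle levels above that of Hif3a, and variability followed the trend over all genes. The check therefore does not cover a gene as low as Hif3a with vehicle, or one more variable than the trend. The most similar 2 libraries still differed by more than sampling noise (chi-square per degree of freedom 7.98). Alternatives were DESeq2 1.42.0, upper-quartile factors, no filter, limma 3.58.1 voom, thinning to equal totals, a block and leaving out each library.

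Members and gene lists were chosen with earlier results of these data known. Named genes are the members, from each pathway list those past the threshold (at most 6) or otherwise the 2 with the smallest p, the 5 most like Hif3a in each measure (mean log2 CPM not under 1), and 5 defining cell type markers. Other names were picked with their values known and say so. Protein sequences were not used here, and 3 listed regulators matched no symbol of the table.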

Additional observations from a re-analysis of the deposited data

Results flagged for a closer look

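Hif3a in vehicle replicate 4, at 1.77 CPM, lay far from the other vehicle libraries (0.913 to 1.03 CPM), with a gap of 0.862 of the group's range. Epo in BRD4780 replicate 3, at 0.188 CPM, was the only value above 0 in its group. Of 20 groups of 4 libraries checked in this way, chance alone flags about 1 in 20 where values vary continuously. That rate does not cover Epo with BRD4780. With 0 in the rest of its group, its gap equals the range at any value above 0.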

How the results depend on the processing

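Hif3a had a positive log2 fold change in all 15 alternatives, from 2.73 to 3.43. Leaving out 1 library gave 2.89 to 3.43 (adjusted p from 6.44e-05 to 0.0678), with 0 to 2 members higher and 0 or 1 lower. In limma voom (2.73, adjusted p = 0.0749) 0 members were higher. The cause was not tested. Over the range of alternatives its adjusted p ran from 1.05e-09 (DESeq2) to 0.0749. Signs turned for Egln3 (-0.05 without BRD4780 replicate 2) and Hif1a (-0.17 without BRD4780 replicate 2, -0.07 without vehicle replicate 4 and -0.01 in limma voom), and for no other tested member. Leaving out 1 library gave -0.17 to 0.17 for Hif1a and -0.05 to 0.29 for Egln3.

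Title numbers occur in both groups for 2 pairs of libraries, and the labels do not say what they mark. The deviations of these pairs from their group means had r of -0.01 and -0.30 across genes. Vehicle and treated libraries without a shared number had r from -0.27 to 0.28. With only 2 such pairs, these values cannot decide whether the libraries are related. The main fit did not treat them as pairs. A replicate block over these 4 libraries gave a Hif3a log2 fold change of 3.07 (adjusted p = 0.0602) with 0 members higher. The same 4 libraries without the block, chosen after seeing the data, gave 3.06 (adjusted p = 0.0157).

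Over all genes, 310 were higher and 84 lower. DESeq2 called 864 and 497, limma voom 204 and 70, and the block fit 19 and 22. Leaving out 1 library gave 26 to 1647 higher and 5 to 1537 lower, with both highest counts without BRD4780 replicate 3. Of 44 hypoxia targets DESeq2 called 5 higher and 6 lower, and of 19 tested HIF-2 targets 5 higher and 0 lower. In that fit 6.68% of all genes were higher and 3.84% lower. The 5 HIF-2 targets were Arg2, Cdh5, Flt1, Kdr and Tek, and all but Arg2 are also in the list of endothelial markers. Depth limits Epo at no more than 7 counts in a library and BRD4780 replicate 4 most of all.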

Other observations

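Of 44 hypoxia targets, 3 were higher and 4 lower with no overlap between the groups, against 7.42% and 5.14% of all genes. Beside Car9, Pkm and Pfkfb4 these were the 4 genes that follow, none past the threshold and all named after their values were seen. Stc2, a secreted stress glycoprotein gene, was at 1.34 to 2.46 CPM with vehicle and 2.75 to 5.52 CPM with BRD4780 (edgeR adjusted p = 0.064), with no overlap. Kdm4b, a histone demethylase gene, was at 19.1 to 20.9 and 23.3 to 29.3 CPM (edgeR adjusted p = 0.0718), also higher. Pfkl, the liver-type phosphofructokinase gene, was lower, at 81.1 to 109.1 and 67.9 to 79.9 CPM (edgeR adjusted p = 0.0825). Bnip3l, a mitophagy receptor gene, was lower too, at 137.5 to 150.9 and 117.3 to 129.6 CPM (edgeR adjusted p = 0.0835). Ddit4, an inhibitor of mTORC1 signalling whose groups overlapped, is given for 1 high library and was at 16.5 to 23.4 CPM with vehicle, at 22.8 to 34.8 CPM in BRD4780 replicates 1 to 3 and at 139.3 CPM in replicate 4.

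Upstream windows of 36 of the 44 hypoxia target genes held ACGTG in 47.3% of 55 windows and GCGTG in 58.2%, against 16.6% and 28.2% of all windows. Some genes had more than 1 window. The windows were not matched for GC content, so these shares are a description only. Car9, from that list, and Egln3, which is not in it, each hold ACGTG once. Car9 fell, while the groups of Egln3 overlapped (log2 fold change 0.14, edgeR adjusted p = 0.69).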
